A study of Mus musculus with 3 samples.

Results

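Dlk1, Grb10, Igf2bp1 and Ndn are genes of fetal growth and of genomic imprinting, and their probes were compared between mouse spleen RNA and a common reference RNA. All probes whose symbol in the platform annotation equals one of these names were taken, which gave 6 probes of 4 genes, out of 16273 probes on the array and 7984 named genes: 1 for Dlk1, 3 for Grb10, 1 for Igf2bp1 and 1 for Ndn. All 6 had a value on each of the 3 arrays. On every array, cRNA copied from commercial spleen total RNA was labelled with Cy5 (red), and cRNA copied from commercial universal mouse reference RNA, a pool from mouse cell lines, with Cy3 (green). The labels state no strain, age, sex or treatment for the spleen and do not name the cell lines of the pool. The same catalogue product is named for each RNA on all 3 arrays, so these arrays may repeat the same extracts, and each p-value then reflects array-to-array spread alone. Since no dyes are labelled as swapped, dye bias and a true difference in RNA level cannot be told apart.

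An imprinted gene is transcribed mainly from the copy inherited from 1 parent. Imprinted genes are known above all for their part in the growth of the embryo and placenta, and many of them fall silent or nearly so in most tissues after birth. Dlk1 and Ndn are expressed from the paternal copy, whereas Grb10 is expressed from the maternal copy in most tissues and from the paternal copy in neurons. Igf2bp1 is not an imprinted gene. Its protein is a fetal RNA-binding protein that binds mRNAs of growth genes, among them that of the imprinted growth factor Igf2. These arrays do not distinguish the parental copies.

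Each value is a signed log ratio of the 2 channels of an array, with no stated base or numerator. Positive values were taken as likely higher in spleen, because red is usually set over green and most genes of blood and immune cells were positive. All 4 measured B cell markers had mean log ratios from 2.72 to 3.91, and the red pulp macrophage gene Slc40a1 had 4.24. The highest of the B cell values, of Cr2, rests on 1 probe. Cr2 probe 3722 had 1.23 and 1.30 on arrays 1 and 3 and was listed at 0 on array 2. Cr2 probe 13259 was listed at 0 on all arrays. The 3 erythroid markers measured on all arrays had 1.72 to 3.22. A further erythroid gene, Alas2, had -0.63 on array 1 and was listed at 0 on the others. Of 5 measured T cell markers 4 were positive and Cd3d was negative at -0.85. All 3 measured fibroblast and mesenchyme markers were negative, from -3.29 to -0.94, while the probes of Sparc and Col5a2 were listed at 0. Col3a1, at -0.94, had a probe at -1.70 and another at -0.18 that did not pass (limma adjusted p = 0.0676 among probes). All 3 measured trophoblast markers were negative, from -1.53 to -0.30. The last value, of Tpbpa, averages 24 probes that ran from -0.89 to 0.33 and held calls in both directions. Its gene call ended without moderation of the variances (limma adjusted p = 0.0798). Of 10 exocrine pancreas markers 9 were positive, the highest at 5.22. Those signs helped to choose the direction and are no evidence for it. Their part in the values of the 4 genes was not tested. In RNA from a whole organ, fewer cells of a type and less RNA per cell cannot be told apart. With limma, 68.3% of the 11086 probes measured on all arrays and 70.3% of the 6077 genes passed an adjusted p of 0.05. At the gene level 33.2% were positive and 37.1% negative, so a call alone sets a gene little apart from the rest. Among probes 32.3% were called positive and 36.0% negative.

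Promoter windows are shown first because the 4 genes went in opposite directions and because the imprinted ones are classically studied through CpG methylation. The RefSeq promoter table (GRCm38.p6) held 4 windows for 3 of the genes. The 250 bases before each annotated start are printed below on the gene's strand, with the bases of every CG pair in capitals.
Ndn, chr7:62348027-62348276, plus strand: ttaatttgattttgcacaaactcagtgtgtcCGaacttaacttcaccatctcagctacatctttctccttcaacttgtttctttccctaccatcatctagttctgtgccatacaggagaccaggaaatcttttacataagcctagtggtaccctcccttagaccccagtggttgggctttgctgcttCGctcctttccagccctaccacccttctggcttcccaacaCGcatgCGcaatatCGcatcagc
Dlk1, chr12:109452573-109452822, plus strand: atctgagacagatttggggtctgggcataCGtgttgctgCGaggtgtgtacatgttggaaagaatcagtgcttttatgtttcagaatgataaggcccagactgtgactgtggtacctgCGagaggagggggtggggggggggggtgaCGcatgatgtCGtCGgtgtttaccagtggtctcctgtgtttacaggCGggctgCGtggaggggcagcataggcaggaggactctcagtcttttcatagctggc
Grb10, outer start, chr11:12037421-12037670, minus strand: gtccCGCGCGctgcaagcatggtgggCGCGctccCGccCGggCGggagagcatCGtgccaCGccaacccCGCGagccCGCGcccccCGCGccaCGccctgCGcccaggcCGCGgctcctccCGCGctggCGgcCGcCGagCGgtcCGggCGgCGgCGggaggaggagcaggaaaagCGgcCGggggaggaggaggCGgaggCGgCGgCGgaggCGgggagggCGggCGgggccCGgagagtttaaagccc
Grb10, inner start, chr11:12027972-12028221, minus strand: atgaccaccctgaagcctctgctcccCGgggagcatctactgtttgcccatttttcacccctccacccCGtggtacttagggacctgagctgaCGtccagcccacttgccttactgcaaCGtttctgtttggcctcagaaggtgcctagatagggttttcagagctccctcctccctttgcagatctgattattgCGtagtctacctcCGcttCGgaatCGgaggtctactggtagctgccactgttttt

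The window before the outer Grb10 start held 40 CG pairs, more than 98.7% of the 32851 windows in the table, and 81.2% of its bases were G or C. The inner Grb10 start and Dlk1 had 8 CG pairs each, and Ndn had 5, against a median of 6 over the table. The GC box, GGGCGG read on either strand, was found 5 times before the outer Grb10 start and in none of the other windows printed. It occurs in 32.7% of the table's windows, and its letters overlap CG pairs. The TATA box, TATAAA read on either strand, was in none of these windows and occurs in 12.4% of the table. The Dlk1 window and the inner Grb10 window lie within the annotated span of their genes, since other transcripts begin farther upstream. The probes cannot be placed on these transcripts here, so the sequence is context and not a reading of which start was used.

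Dlk1 was the member farthest from 0. Dlk1, also called preadipocyte factor Pref-1, is a membrane protein with EGF-like repeats, related to the ligands of Notch, that holds preadipocytes back from becoming fat cells. Probe 14656 had log ratios of -2.80, -3.17 and -2.66 on arrays 1 to 3. All 3 lay on the likely reference side, with array 2 the lowest. The mean was -2.88 ± 0.26 (SD, n = 3; limma adjusted p = 6.03e-07 among genes). That is 7.34-fold lower in spleen if the base is 2 and 17.7-fold if the logs are natural. Among all genes, Dlk1 ranked 18 from the lowest of 6077.

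Igf2bp1 had the next lowest gene mean of the 4. The protein, also named CRD-BP, Zbp1 or Imp1, stabilises and carries mRNAs such as those of Myc and beta-actin, and it is made mainly in the embryo and in tumours. Its probe 6041 gave log ratios of -1.92, -2.10 and -1.75. Every array was again on the likely reference side, and array 2 was again the lowest. The mean of -1.92 ± 0.17 (SD, n = 3; limma adjusted p = 1.38e-06 among genes) equals 3.80-fold in base 2 and 6.85-fold in natural logs. Of all genes, 1.46% had a lower mean.

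Ndn was the 1 member on the likely spleen side. It encodes necdin, a MAGE family protein of neurons and progenitor cells that restrains the cell cycle and binds E2F1 and p53. Probe 9842 had log ratios of 0.74, 0.98 and 0.79. The 3 values were all positive, and array 2 was the highest. The mean was 0.84 ± 0.13 (SD, n = 3; limma adjusted p = 4.51e-05 among genes), or 1.79-fold higher in spleen in base 2 and 2.31-fold in natural logs. It lay nearer to 0 than the other members' gene means, and 90.4% of genes had a lower mean. The Ndn values on the 3 arrays did not overlap those of Dlk1 or Igf2bp1.

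**Figure D1:**
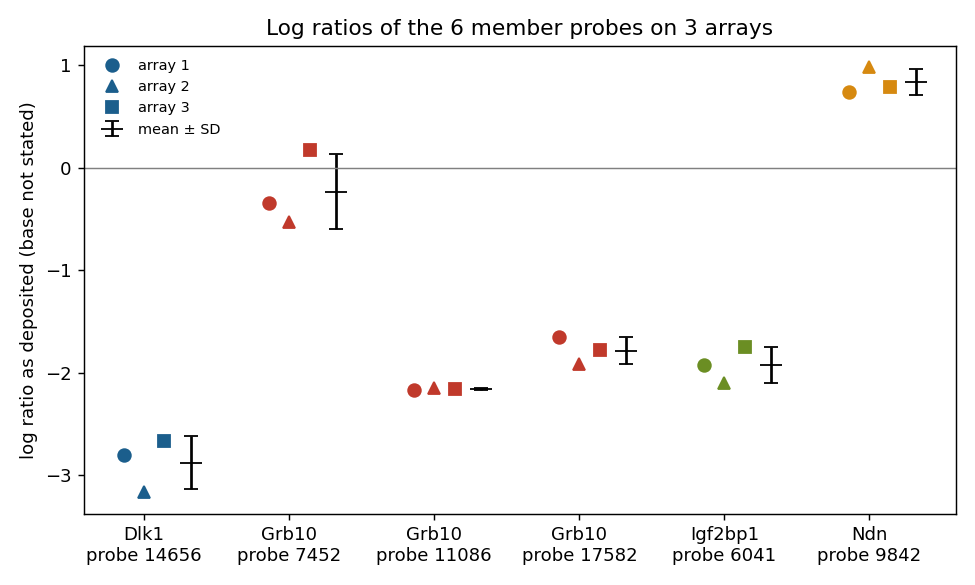
Log ratio (y axis, as deposited, base not stated) of each of the 6 probes on array 1 (circle), array 2 (triangle) and array 3 (square), with the mean and SD of the 3 arrays as a black bar. The Ndn probe is above 0 on all arrays, Grb10 probe 7452 straddles 0, and the other 4 probes lie between -3.17 and -1.65.

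Grb10 had 3 probes that did not give 1 answer. Its protein is an adaptor that binds the insulin and IGF1 receptors and dampens their signal, and it restrains fetal growth. Probe number 11086, which by coincidence equals the count of measured probes, had log ratios of -2.17, -2.14 and -2.16. These agreed more closely than those of nearly all probes, since 0.983% of probes had a smaller SD. Their mean was -2.16 ± 0.014 (SD, n = 3; limma adjusted p = 5.7e-07 among probes), 4.46-fold lower in spleen in base 2 and 8.65-fold in natural logs.

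Probe 17582, annotated with the same cDNA accession as 11086, had -1.65, -1.92 and -1.78. It too was negative on every array. The mean was -1.78 ± 0.13 (SD, n = 3; limma adjusted p = 2.62e-06 among probes). The base 2 fold was 3.44.

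Probe 7452, annotated with another Grb10 cDNA, had log ratios of -0.35, -0.53 and 0.18. It was negative on arrays 1 and 2 and positive on array 3, and its SD of 0.37 exceeded that of 96.3% of probes. The mean of -0.23 did not pass the test (limma adjusted p = 0.157 among probes), with a 95% interval of the limma fit from -0.55 to 0.08. That interval does not reach the values of the other Grb10 probes. Without array 3 the mean was -0.44 and passed (limma adjusted p = 0.000792), though with 1 residual degree of freedom the fit took 56.0 degrees of freedom from the other probes, against 4.72 with all arrays.

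On each array probe 7452 lay above both other Grb10 probes. It exceeded 11086 by 1.83, 1.61 and 2.33, a mean difference of 1.92 ± 0.37 (SD, n = 3). Against 17582 the difference was 1.31, 1.39 and 1.95, with a mean of 1.55 ± 0.35 (SD, n = 3). The probes of the same accession differed less, since 11086 minus 17582 gave -0.52, -0.23 and -0.38, a mean of -0.38 ± 0.15 (SD, n = 3). Each of the 3 pairs had the same sign on all arrays. Their exact sign-flip permutation p was 0.25 (two-sided, n = 3), the smallest that 3 arrays allow, and 0.25 after adjustment over the 3 pairs.

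Among 6071 pairs of probes of one gene with different accessions, the median absolute difference was 0.24, and 98.8% of pairs differed by less than probes 7452 and 11086. Of 1383 genes with such pairs, 36 (2.60%) had a larger largest difference than Grb10. Pairs with the same accession were closer, with a median of 0.12 over 502 pairs. For this kind of pair, 88.2% differed by less than probes 11086 and 17582. A mixture of called and uncalled probes with no opposite calls was found in 563 of 1491 genes with more than 1 probe (37.8%), and opposite calls in 139 (9.32%). Grb10 belongs to the first kind.

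**Figure D2:**
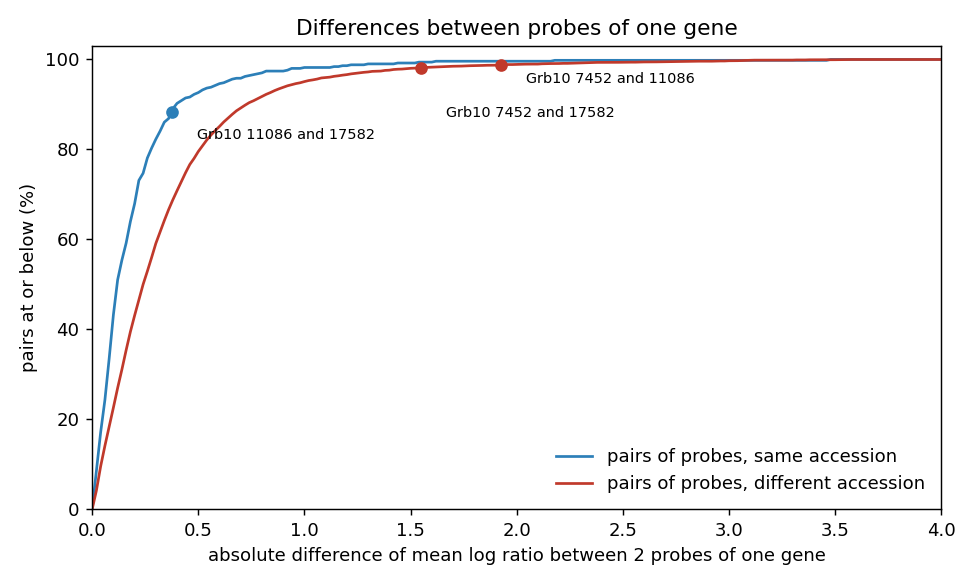
Cumulative share of probe pairs (y axis, %) by the absolute difference of their mean log ratios (x axis), for 502 pairs with the same accession (blue) and 6071 with different accessions (red). The 2 Grb10 pairs that include probe 7452 lie at 1.55 and 1.92 on the flat end of the red curve, and the same-accession pair lies at 0.38 on the blue curve.

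The average of the 3 Grb10 probes was -1.39 on array 1, -1.53 on array 2 and -1.25 on array 3. The gene mean was -1.39 ± 0.14 (SD, n = 3; limma adjusted p = 4.2e-06 among genes), which depends on how the probes are combined. It was -1.78 with the median of the probes and -2.16 with the probe farthest from 0. All 3 of these were negative and passed the test. By gene mean the order from lowest was Dlk1, Igf2bp1, Grb10, Ndn, and the per-array values of neighbours in this order did not overlap. The place of Grb10 turns with the way its probes are combined. Probe 11086, the one farthest from 0, lay below Igf2bp1 on every array, and probe 17582, which gives the median, overlapped it.

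At the gene level all 4 genes passed, 3 of them negative and 1 positive, and at the probe level 5 of 6 passed, 4 negative and 1 positive, beside the 70.3% of genes and 68.3% of probes called over the whole table. The sizes were less common than the calls. Only 0.235% of probes had a lower mean than the Dlk1 probe, 0.929% a lower one than Grb10 probe 11086, 1.29% than the Igf2bp1 probe and 1.58% than Grb10 probe 17582. For probe 7452 that share was 34.9%, close to the middle of the array.

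**Figure D3:**
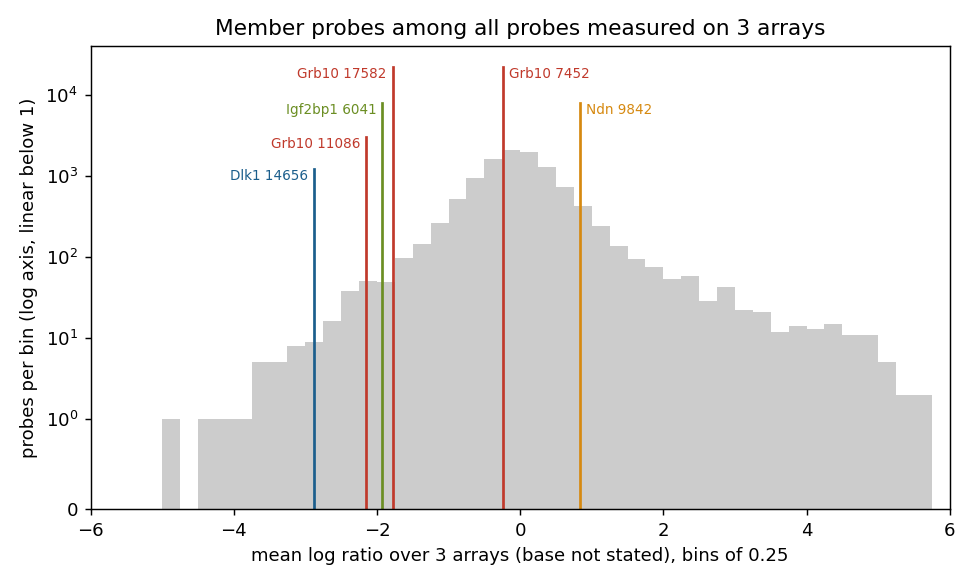
Number of probes (y axis, log scale above 1) by mean log ratio over the 3 arrays (x axis, bins of 0.25) for the 11086 probes measured on all arrays, with coloured lines at the means of the 6 probes. Dlk1, Igf2bp1 and 2 Grb10 probes stand in the negative tail, Grb10 probe 7452 in the bulk at -0.23, and Ndn on the positive shoulder at 0.84.

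The departures of single arrays from these means had the same sign as the median departure of probes with nearby numbers in 16 of 18 cases (6 probes on 3 arrays). The exceptions were Grb10 probe 7452 on array 1, at -0.11 against 0.04 for its neighbours, and Grb10 probe 11086 on array 3, at 0.00064 against -0.10. For Dlk1, array 2 was 0.29 below the probe's own mean, while the median departure on array 2 of its 17 measured neighbours within 10 probe numbers was -0.09. Igf2bp1 was lowest on array 2, where its 20 neighbours had a median departure of -0.13. Ndn was 0.14 above its mean on array 2, and its 16 neighbours had a median of 0.12. Grb10 probe 7452 was 0.41 above its mean on array 3 and 0.30 below it on array 2, with medians of 0.10 and -0.14 for its 14 neighbours. In these 4 examples the neighbours departed by less. Departures of a probe sum to 0, so the 18 are not independent. The share of such agreement over all probes was not computed, so the 16 of 18 is no trait of these genes. Whether the departures of a probe and of its neighbours share a source was not tested. The medians of the neighbours' own mean ratios ran from -0.24 to 0.32 around the 6 probes. Around probe 7452 that median was -0.22, close to the probe's own mean of -0.23. With the running median of nearby probes subtracted, probe 7452 was at -0.0030 (limma adjusted p = 0.979). The same subtraction put probe 11086 at -2.02, probe 17582 at -2.07 and Igf2bp1 at -1.69. Probe 17582 then lay below both 11086 and Igf2bp1, so their order depends on this setting. Differences between the Grb10 probes were not tested under it.

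Imprinted genes as a group were mixed. Of 27 listed genes expressed from the paternal copy in at least some tissues, 7 were measured on all arrays, of which 5 were negative, 1 was positive and 1 missed the threshold, which is 6 called of 7, Dlk1 and Ndn included, beside 70.3% of all genes. Their median was -0.68, against -0.03 for all genes. Besides Dlk1, the negative ones were Airn at -1.39 ± 0.39, Slc38a4 at -0.77 ± 0.13, Mcts2 at -0.68 ± 0.031 and Peg3 at -0.31 ± 0.11 (mean log ratio ± SD, n = 3). Without moderation of the variances in limma, Airn and Peg3 did not pass (adjusted p = 0.053 and 0.0707). Airn is a noncoding RNA that runs antisense to Igf2r, and a probe need not tell the strands apart, so that value is uncertain. Mcts2 is a retrogene with a close parent copy, Mcts1, which makes it uncertain too. Slc38a4 encodes an amino acid transporter that is abundant in placenta, and Peg3 a zinc finger protein of placenta and brain. Snrpn, which lies in the same imprinted cluster as Ndn, had -0.06, -0.03 and 0.07 and did not pass (limma adjusted p = 0.957). Ndn was the positive gene of this list.

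Of 30 listed genes expressed from the maternal copy in at least some tissues, 11 were measured, of which 2 were negative, 3 positive and 6 did not pass. That is 5 called of 11 beside 70.3% of all genes, and the negative ones were Grb10 and Cd81. The median was -0.05. Cd81, a tetraspanin of many cell types that is imprinted in placenta, had -1.42 ± 0.14 (SD, n = 3). Its 4 probes were all negative, from -1.64 to -0.92, but all are annotated with the same accession. Cdkn1c, a cyclin-dependent kinase inhibitor that limits fetal growth, was on the likely spleen side at 0.54 ± 0.10 (SD, n = 3), with 3 positive probes. Small positive values were called for Nap1l4 (0.24) and H13 (0.19). Dropping array 1 ended both calls (limma adjusted p = 0.06 and 0.0745), as did dropping array 2 (0.139 and 0.0641). Dropping array 3 also ended that of H13.

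The noncoding RNAs Meg3, Rian and Mirg come from the maternal copy of the domain that holds Dlk1 and do not share its value. Their mean log ratios were -0.15, -0.05 and -0.06, and none passed at the gene level (limma adjusted p = 0.117, 0.472 and 0.484). For Meg3, 1 of the 2 probes measured on all arrays passed on its own, at -0.21 (limma adjusted p = 0.0274 among probes). Meg3 probe 6082 had -0.35 and -0.38 on arrays 2 and 3 and was listed at 0 on array 1. Its probes 11267 and 15365 were listed at 0 on all arrays. The probe of H19, the maternally expressed noncoding RNA next to Igf2, was listed at 0 on all arrays. Sgce, a paternally expressed sarcoglycan gene, had -0.83 on array 3 and was listed at 0 on the other two.

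**Figure D4:**
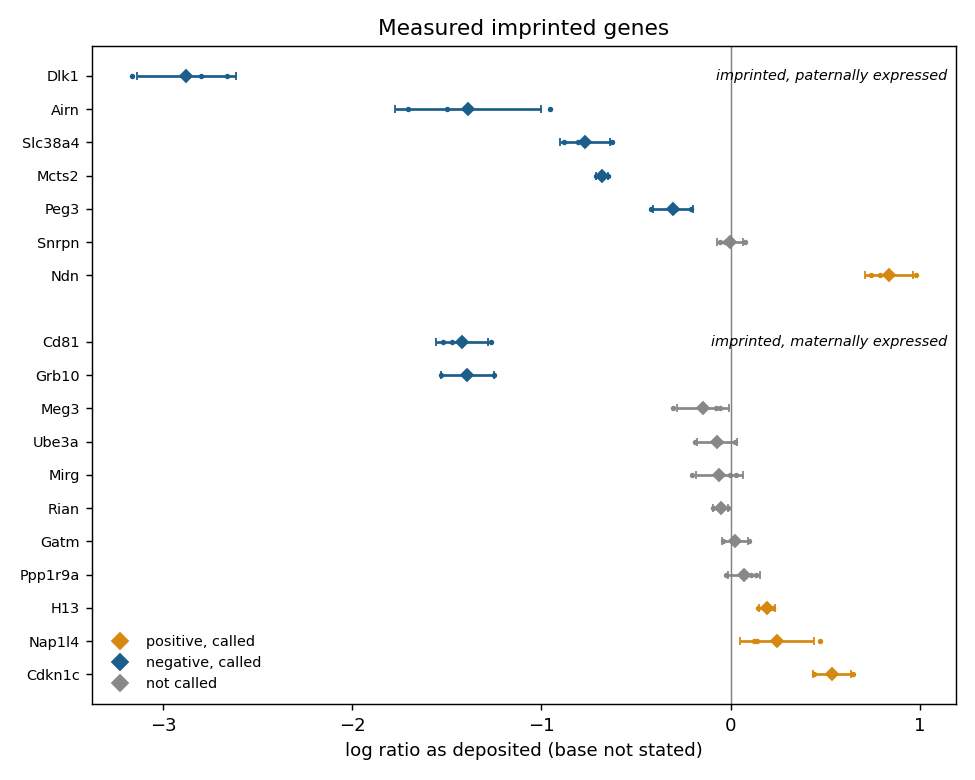
Mean log ratio (diamond, x axis, base not stated) with SD (bar) and the 3 arrays (dots) for imprinted genes measured on all arrays, 7 paternally expressed above and 11 maternally expressed below, coloured by the limma gene call. Dlk1 is the lowest at -2.88 and Ndn the highest at 0.84, while Meg3, Rian and Mirg lie close to 0.

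Genes of the IGF and insulin pathway, in which Grb10 and Igf2bp1 act, went in both directions. Of 30 listed genes 14 were measured, with 6 negative, 6 positive and 2 not past the test, and a median of 0.01. These 12 called genes of 14, beside 70.3% of all genes, include Grb10 among the negative ones. Among ligands, only the insulin gene Ins2 was measured, at 1.02 ± 0.29 (SD, n = 3). Ins2 is a product of pancreatic islets, and 9 of 10 exocrine pancreas markers were positive beside it. The other measured islet markers were not, since Gcg, the glucagon gene, was negative at -0.38 (limma adjusted p = 0.00239) and Pdx1, a transcription factor of beta cells, had -0.20 and did not pass (0.0589). The call of Gcg ended without moderation of the variances in limma (adjusted p = 0.0611). The receptor gene Igf1r had log ratios of -0.96, -0.99 and -0.80 at its measured probe. Its second probe had -1.27 on array 1 and was listed at 0 on the others. With those 0 entries kept as values Igf1r was at -0.67 and did not pass (limma adjusted p = 0.111).

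Among adaptors, Grb14, the close relative of Grb10 that also binds the insulin receptor, had -2.07, -1.82 and -2.01 at 1 probe, while its probes 1090 and 10385 were listed at 0 on all arrays. The mean of -1.97 ± 0.13 (SD, n = 3; limma adjusted p = 7.37e-07) lay between those of the 2 Grb10 probes that passed. Grb2, which links receptors to Ras and is no close relative, was positive at 0.41, though its 2 probes differed, at 0.05 and 0.77. The kinase subunit Pik3ca had 0.75. Binding proteins, which hold IGFs in the circulation and tissues, lay on both sides: Igfbp3 was at 3.54 ± 0.12 and Igfbp5 at 0.56 ± 0.24, whereas Igfbp6 was at -2.47 ± 0.30 and Igfbp2 at -1.25 ± 0.028 (mean log ratio ± SD, n = 3). The 2 Igfbp2 probes measured on all arrays differed, at -0.94 and -1.56. Igfbp2 probe 12146 had -0.28 and -0.48 on arrays 1 and 3 and was listed at 0 on array 2. The call of Igfbp5 ended with 0 kept as a value (limma adjusted p = 0.0649). Without moderation of limma's variances Igfbp5, Ins2 and Grb2 did not pass (adjusted p = 0.0924, 0.0544 and 0.0643).

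Of 12 listed oncofetal growth genes and partners of Igf2bp1, 5 were measured, with 3 negative, 0 positive and 2 not past limma's gene test, which is 3 called of 5, Igf2bp1 included, beside 70.3% of all genes. Igf2bp3, the other fetal paralogue measured, had -0.66, -0.9985 and -0.73. A second Igf2bp3 probe had -1.72 and -1.47 on arrays 1 and 2 and was listed at 0 on array 3. The paralogue was thus on the same side as Igf2bp1 at both probes. With 0 kept as a value the Igf2bp3 mean was -0.93 and did not pass (limma adjusted p = 0.0934). The helicase Dhx9, a partner of Igf2bp1 in a complex on Myc mRNA, was at -0.34 ± 0.29 (SD, n = 3), and its call ended without array 1 (-0.35, limma adjusted p = 0.0805), without array 2 (-0.19, 0.091) and with 0 kept as a value (0.209). Lin28b, a fetal inhibitor of let-7 microRNAs, had -0.10, -0.13 and 0.50 and did not pass (limma adjusted p = 0.548). The probes of Hmga2 and all 3 probes of alpha-fetoprotein, Afp, were listed at 0. Of 7 mRNAs known to be bound by Igf2bp1, 3 had a probe and 0 were measured.

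Of 10 genes of the MAGE family and necdin partners, 4 were measured and 3 were called, Ndn included, beside 70.3% of all genes. Maged1, a MAGE gene related to Ndn that is expressed in many tissues, was negative at both probes, -1.45 and -1.39, the opposite of Ndn. E2f1, whose protein necdin binds, was at 0.35 ± 0.11 (SD, n = 3). With a running median over 10 probe numbers on either side subtracted, it was at -0.13 and did not pass (limma adjusted p = 0.0655). Nsmce3 did not pass.

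The Notch list, taken for Dlk1, had 5 measured genes of 25, Dlk1 included, and all 5 were called beside 70.3% of all genes. The receptor Notch1 was positive at 1.31 ± 0.090 and the sheddase Adam10 at 0.51 ± 0.27, while the ligand Jag1 was at -0.35 ± 0.11 and the protease subunit Psen2 at -0.29 ± 0.10 (mean log ratio ± SD, n = 3). The call of Psen2 ended without array 1 (limma adjusted p = 0.0654), and that of Adam10 with 0 kept as a value (0.0972). Without moderation in limma, Jag1, Adam10 and Psen2 did not pass (adjusted p = 0.0611, 0.126 and 0.075). Of 10 preadipocyte and adipocyte genes 2 were measured on all arrays, Dlk1 and Sox9, a transcription factor that Dlk1 acts through in preadipocytes. Sox9 had -2.71, -2.37 and -2.59, close to Dlk1. Lpl, of the same list, lay on the opposite side, with 0.48 and 0.52 on arrays 1 and 3 at probe 12887. That probe was listed at 0 on array 2, and Lpl probe 17663 was listed at 0 on all arrays.

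**Figure D5:**
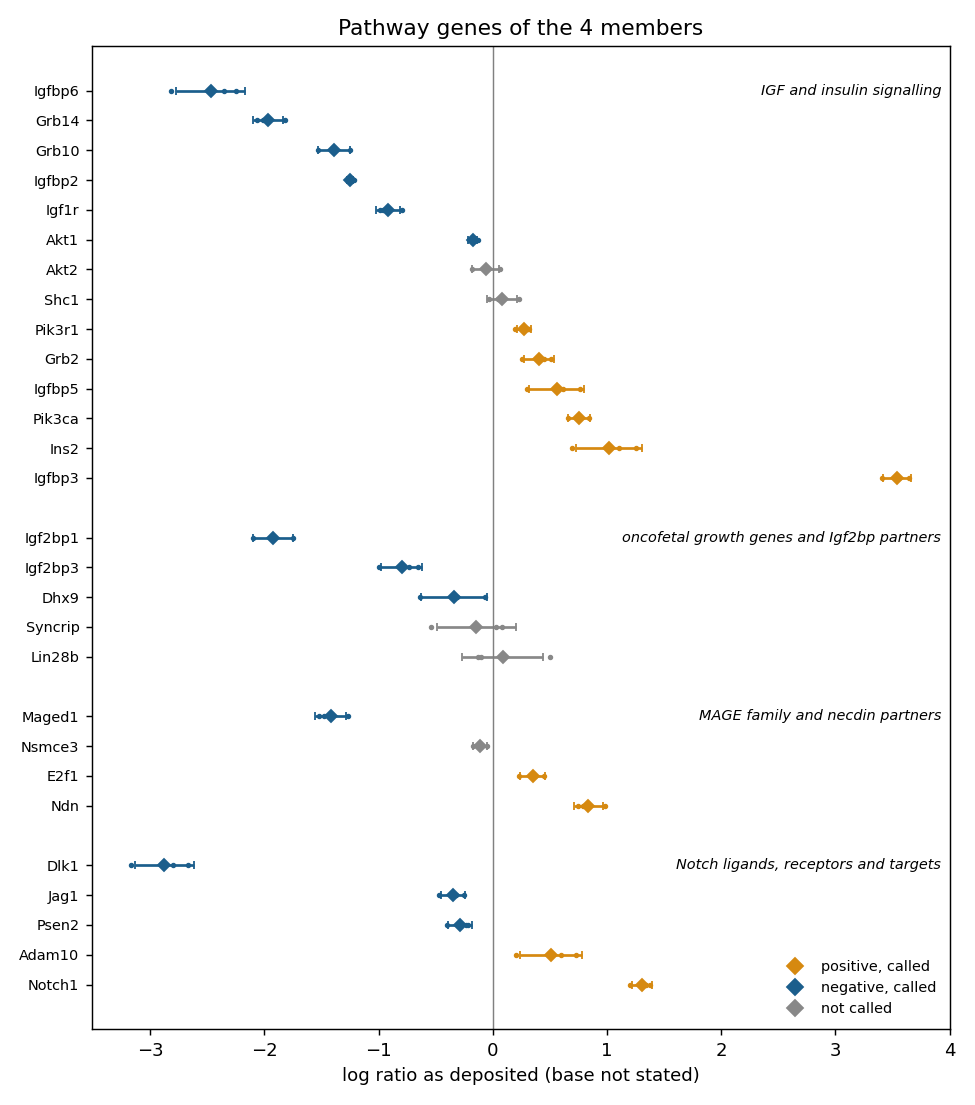
Mean log ratio (diamond, x axis, base not stated) with SD (bar) and the 3 arrays (dots) for measured genes of 4 lists chosen around the 4 genes, coloured by the limma gene call. Igfbp3 at 3.54 and Dlk1 at -2.88 mark the ends, Grb14 and Igf2bp3 lie on the negative side, as do Grb10 and Igf2bp1, and Maged1 lies opposite Ndn.

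The chromosomal neighbours that were measured had ratios of smaller size than the gene means of the 4 genes. Of the 5 protein-coding genes on either side of each gene in RefSeq order, 9 had a gene value, and all 9 lay between -0.34 and 0.44. The median of all genes was -0.03, and the share of all genes within that range was not computed. Small values are thus no trait of these neighbours. Near Dlk1, Ppp2r5c, a phosphatase subunit, was at 0.29 and the RIKEN gene 1700001K19Rik at -0.34. Begain and Rtl1, the genes directly beside Dlk1 in this order, had no named probe. Near Grb10, Pom121l12 was at 0.44 and Sec61g, a subunit of the protein translocon, at 0.31. The incretin gene Gip beside Igf2bp1 was at 0.27. Near Ndn, neither Ube3a nor Snrpn passed, and near Igf2bp1 neither Snf8 nor Atp5g1 did. The other neighbours with a value were called, beside 70.3% of all genes. Without moderation in limma, Ppp2r5c, 1700001K19Rik, Sec61g and Gip did not pass (adjusted p = 0.0623, 0.0787, 0.0771 and 0.0861).

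The genes with the most similar ratios over the 3 arrays were found by the root mean square difference among 5204 genes with a proper symbol. For Dlk1 they were Atg9b (0.056), the neural and embryonic transcription factor Sox11 (0.12) and Efhc2 (0.19). Epha2 (0.034), an ephrin receptor, the hormone gene Prl (0.052) and Stmn2 (0.079), a neuronal microtubule protein, came closest to Igf2bp1. For the Grb10 mean they were Mlf1 (0.0078), the keratin Krt13 (0.029) and Pir (0.043). Nearest to Ndn were the chemokine Ccl27a (0.023), Tecpr1 (0.028) and Fcrls (0.031). With 3 arrays of a single comparison, such likeness describes the size of the ratio and the shared departures of the arrays.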

How the data were processed

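The authors deposited 1 table of signed log ratios for 16273 probes on 3 two-colour arrays. How images were read, corrected and normalized, and which base and numerator the logs have, is not stated in the labels, so values were tested as deposited and folds are given for base 2 and natural logs. An exact 0 (24.2% to 26.8% of probes per array) was read as no measurement, and intensities were not used here. The medians of the arrays over measured probes were -0.029 to -0.027, and Pearson's r between arrays, across probes, was 0.952 to 0.969. Whether the authors centred the arrays is unknown. Names came from the platform annotation, with 12336 probes of 1 symbol, 61 of several and 3876 unnamed here. RefSeq (GRCm38.p6) held the gene IDs of 12228 and changed 0 symbols. Probes of a gene were averaged.

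Since the arrays form 1 group, limma 3.58.1 (R 4.3.3) tested each ratio against 0 (moderated intercept fit, two-sided, Benjamini-Hochberg over all probes or all genes, adjusted p under 0.05). Pairs of probes were compared with an exact sign-flip test. The members, lists and settings were chosen with earlier results of these data known. All probes of the 4 genes are named, with up to 8 genes of each list by size and the 3 most similar genes per member. Genes chosen after their values were seen are Igfbp5, Grb2, Rian, Mirg, Shc1, Pik3r1, Akt1, the chromosomal neighbours and list genes at 0 or on part of the arrays. On simulated data for the gene test (6077 genes), 50 genes were shifted at each size, a smaller share than was called in the data. The fit recovered 3 of 50 at a shift of 0.25, 28 at 0.5, 44 at 1 and 49 at 2, and made 3 false calls. Because the adjustment depends on the share of shifted genes, these counts do not give the recovery or false calls in the data. The number of arrays limits the precision. Figures used matplotlib 3.10.9.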

Additional observations from a re-analysis of the deposited data

How the results depend on the processing

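The 4 gene calls and the 5 probe calls kept their direction and stayed past the threshold under all 13 settings other than leaving out an array (11 apply to probes), with adjusted p up to 0.0364, and without array 1 or array 2. Leaving out array 3 gave the gene fit an infinite prior, so the gene p-values there are too small to be read and only the direction counts; the probe calls stayed. Without each array in turn, the gene means ranged from -2.98 to -2.73 for Dlk1, -1.46 to -1.32 for Grb10, -2.01 to -1.84 for Igf2bp1 and 0.77 to 0.89 for Ndn. Grb10 probe 11086 ranged from -2.16 to -2.15, probe 17582 from -1.85 to -1.72 and probe 7452 from -0.44 (without array 3, called) to -0.084. The pair differences ranged from 1.72 to 2.08, 1.35 to 1.67 and -0.45 to -0.30. Without moderation 4609 probes were called (2365 positive, 2244 negative) and 2770 genes (1395 negative). Against a 1.5-fold change in base 2 these were 2104 probes (1137 and 967) and 1208 genes (626 and 582), and in natural logs 3120 probes (1577 and 1543) and 1771 genes (876 and 895). Subtracting a running median over 10 probe numbers on either side, each probe's own value included, brought Pik3r1 to 0 and changed the sign of Shc1 (-0.20, now called), Akt1 (0.0030) and E2f1 (-0.13). The cause was not tested. Of 90 other named genes, calls were lost by 17 without moderation, and by 24 and 20 against a 1.5-fold change in base 2 and natural logs. They were lost by 10 with 0 kept, 7 without array 1, 4 without array 2 and 4 without array 3. An adjusted p of 0.01 ended 5 calls and centred arrays 1. With the running median subtracted 4 more lost their calls and did not change sign. With each array centred on its median, 3803 probes were positive and 3773 negative. No paired analysis was possible because the 3 arrays form 1 group. Signal over background is unknown.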
